A study of Drosophila montana with 9 samples.

Results

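The Hsp70 cognates are the members of the Hsp70 family of heat shock proteins that cells make without heat stress. Of the 108 genes measured on the array, 5 belong to the group: *Hsc70-2*, *Hsc70-3*, *Hsc70-4*, *Hsc70-5* and the Hsp110 relative *Hsc70Cb*. They were chosen by gene name, and they are covered by 11 of the 208 distinct experimental probes. RNA came from the whole body of *Drosophila montana* females of the isofemale line O3F66, a laboratory stock descended from 1 wild-caught female, on 3 arrays for each of 3 groups with 13 pooled females per sample. Diapausing females were 14 days old after a stay at 16°C with 16 h of light in each day. These conditions induce reproductive diapause, in which the ovaries stay undeveloped. Reproducing females had the same age of 14 days and the same 16°C, with continuous light (24 h), which prevents diapause. Young females were frozen at an age of 1 day, straight from the culture in continuous light at 19°C. The 14-day groups therefore differed in day length along with their reproductive state, and both differed from young females in age and temperature, so these factors cannot be told apart. The labels do not say whether the replicates of a group were independent cultures, so the p-values measure the spread between these samples only.

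Hsp70 proteins bind stretches of unfolded protein and release them in a cycle driven by ATP. J-domain proteins deliver the unfolded protein and speed up ATP hydrolysis, and nucleotide exchange factors then let the chaperone release it. From work in *D. melanogaster* and other animals, Hsc70-4 is the main cytosolic cognate and also strips clathrin from vesicles. Hsc70-3 is the BiP of the endoplasmic reticulum, Hsc70-5 is the mitochondrial form that pulls proteins through the inner membrane, and Hsc70Cb is an exchange factor of the Hsp110 type. Hsc70-2 is a further chaperone of the Hsp70 type.

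Each probe is 60 bases long, and the probes of *Hsc70-4* are shown first because they decide what the signal of that gene can be read as. The capitals mark the 33 bases that the first and second probe share on opposite strands.
Hsc70_4_1F1R: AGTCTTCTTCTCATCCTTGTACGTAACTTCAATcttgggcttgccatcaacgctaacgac
Hsc70_4_1F1R_K: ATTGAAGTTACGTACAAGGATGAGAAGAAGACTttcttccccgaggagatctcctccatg
Hsc70_4_2F2R: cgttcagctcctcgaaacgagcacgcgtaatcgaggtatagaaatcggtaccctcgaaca
In the codon use that all 208 probes share, Hsc70_4_1F1R_K scored as the coding strand (score of 0.999, where 1 is coding and 0 its complement), and Hsc70_4_1F1R and Hsc70_4_2F2R scored as the complement (0.00 and 0.003). The score is an estimate from the probe letters alone, made after the values were seen, and no transcript sequence was used. The array carried 6 such pairs of probes whose names differ only in the letter K. The members of all 6 pairs overlapped on opposite strands, and 5 of the 6 pairs scored on opposite sides of 0.5. Partners share 22 to 53 bases, so opposite scores are in part built in and do not test the score. Only the pairs of *Hsc70-4* and *per* scored above 0.95 with one probe and below 0.05 with the other. The pair of *ari-1* shares 35 bases on opposite strands, yet both its probes scored on the same side (0.118 and 0.27).

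Over all probes, 64 scored as coding strand (above 0.95), 64 as complement (below 0.05) and 80 as undecided. Among the 11 probes of the cognates, 4 scored as coding strand, 6 as complement and 1 (Hsc70_5_1F1R, 0.322) was undecided. The coding-strand probes were those of *Hsc70Cb*, shown here because both probes of the gene read the same way, together with Hsc70_5_2R and Hsc70_4_1F1R_K.
Hsc70Cb_1F1R: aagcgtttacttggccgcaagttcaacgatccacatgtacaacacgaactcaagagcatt
Hsc70Cb_2F2R: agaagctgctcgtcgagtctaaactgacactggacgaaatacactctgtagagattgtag
All 4 probes of *Hsc70-2* and *Hsc70-3* scored as complement, and they are shown because their signal lay near that of the negative control spots.
Hsc70_2_1F1R: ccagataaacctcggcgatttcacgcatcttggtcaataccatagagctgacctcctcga
Hsc70_2_2F2R: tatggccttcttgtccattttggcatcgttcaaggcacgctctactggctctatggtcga
Hsc70_3_1F1R: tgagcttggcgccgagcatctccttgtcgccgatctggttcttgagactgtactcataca
Hsc70_3_2F2R: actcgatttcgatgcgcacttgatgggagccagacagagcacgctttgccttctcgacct
The labelling kit copies mRNA into labelled RNA complementary to it, so a coding-strand probe pairs with that copy. What the signal of a complement-strand probe stands for was not tested. Across the 92 pairs of probes from different genes of the Hsp70 family, *Hsp68* included, the longest stretch that 2 probes shared was 8 bases. RefSeq lists a *D. montana* gene of the same name for each of the 5 cognates (assembly ASM3504440v1).

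The signal on the scanner's scale is a mean pixel intensity per spot, and the negative control spots averaged 54.1 to 68.1 on the 9 arrays. The brightest negative spot of any array, at 174.6, was on the array of reproducing replicate 40. Between 120 and 147 of the 197 probes in use were well above background on an array. Diapausing, reproducing and young arrays shared each of 3 slides, but each group always sat at the same slide position, so position and group cannot be told apart. Of the genes that mark cell types a whole fly holds, 13 of 13 photoreceptor genes and 7 of 9 neuronal genes were well above background on at least 1 array, and no ovary-defining gene was among the 108.

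*Hsc70-2* was the one cognate with probes that were not well above background on some arrays. Hsc70_2_1F1R was well above background on 8 of 9 arrays, with intensities of 90.3 to 143.2 in diapausing, 64.6 to 106.8 in reproducing and 89.0 to 105.7 in young females. Hsc70_2_2F2R was well above background on 1 of 3 diapausing, 1 of 3 reproducing and 3 of 3 young arrays. The other 9 probes were well above background on all 9 arrays, but those of *Hsc70-3* lay at 103.6 to 183.8, and only 6 and 8 of the 9 arrays had Hsc70_3_1F1R and Hsc70_3_2F2R above the brightest negative spot of the same array. *Hsc70-4*, *Hsc70-5* and *Hsc70Cb* were above it with every probe on all 9 arrays.

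**Figure D1:**
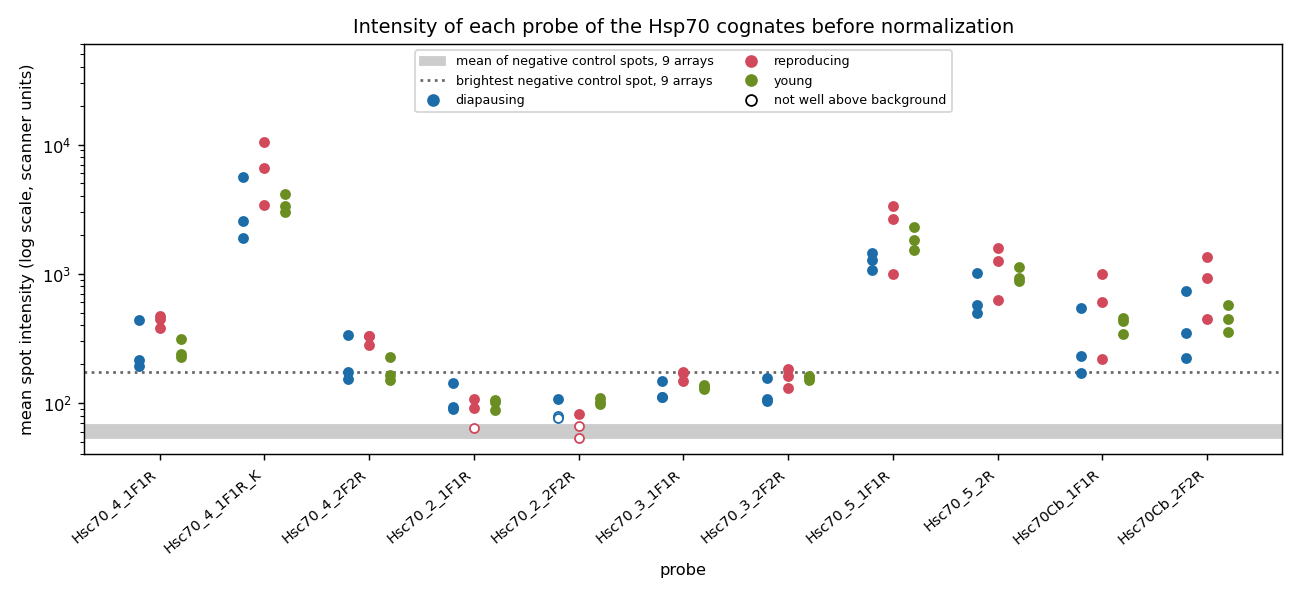
Mean spot intensity of each of the 11 probes before normalization (log scale), 1 point per array for diapausing, reproducing and young females, hollow where the probe was not well above background, with the range of the negative control means (grey band, 54.1 to 68.1) and the brightest negative spot of all arrays (dotted line, 174.6). The probes of *Hsc70-2* lie close to the negative controls, and heights of different probes are not comparable as amounts of RNA.

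The comparisons below use VSN-normalized intensities on the log2 scale, averaged over the probes of a gene, with 2 probes for each cognate. A gene was called when limma gave a Benjamini-Hochberg adjusted p under 0.05 over the 108 genes together with a fold change over 2. A higher or lower value in whole-body RNA can come from more or fewer cells of a type or from more or less RNA per cell, which cannot be told apart.

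By these criteria no cognate was called in any of the 3 comparisons. In diapausing against reproducing females 0 of 5 were called, against 0.926% of all genes, and in diapausing against young females 0 of 5 against 1.85%. In reproducing against young females 0 of 5 were called against 8.33% of all genes. At an unadjusted p under 0.05 the counts were 0 of 5 (8.33% of all genes), 0 of 5 (10.2%) and 1 of 5 (23.1%) in the same order, the 1 being *Hsc70-2*.

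*Hsc70-4*, the main cytosolic cognate, was the cognate whose reproducing arrays lay closest together. Its normalized log2 intensity was 8.70, 6.69 and 6.96 in diapausing females (replicates 27, 42 and 43), 8.35, 8.09 and 8.25 in reproducing females (replicates 22, 23 and 40) and 7.92, 7.49 and 7.41 in young females (replicates 12, 16 and 17). Diapausing replicate 27 was the highest of the 9 arrays and the other diapausing arrays were the lowest. Means were 7.45 ± 1.09 in diapausing, 8.23 ± 0.13 in reproducing and 7.61 ± 0.27 in young females (SD, n = 3 each). The log2 difference of diapausing from reproducing females was -0.78 (SE 0.49, 95% interval from -1.89 to 0.33, limma adjusted p = 0.641). Reproducing arrays did not overlap young arrays, with a log2 difference of 0.62 (SE 0.49, limma adjusted p = 0.497), and diapausing differed from young females by -0.16 (SE 0.49, limma adjusted p = 0.859).

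These values rest on the 2 complement-strand probes. The coding-strand probe Hsc70_4_1F1R_K, which is not among the 197 probes of the deposited value table, had intensities of 5637, 1900 and 2570 in diapausing, 10448, 6598 and 3430 in reproducing and 3335, 4168 and 3026 in young females. Its partner Hsc70_4_1F1R read 437.6, 193.0 and 216.9 in diapausing, 469.0, 382.9 and 449.6 in reproducing and 311.3, 240.0 and 226.7 in young females. Reproducing replicate 40 was the lowest of its group on the K probe and the middle one on the partner. Reproducing and young arrays overlapped on the K probe. On the normalized scale, with all 208 probes in the fit, the K probe differed by -1.005 (SE 0.63, limma adjusted p = 0.585) in diapausing against reproducing females, and its partner by -0.82 (SE 0.49, limma adjusted p = 0.585). After centring each probe on its mean over the 9 arrays, the K probe differed from its partner by a root mean square (RMS) of 0.449 and from Hsc70_4_2F2R by 0.52, while those 2 complement-strand probes differed from each other by 0.123.

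*Hsc70-2* was the cognate whose lowest group was the reproducing one. Its normalized log2 intensity was 6.42, 5.06 and 5.05 in diapausing, 4.87, 5.22 and 4.70 in reproducing and 5.78, 6.30 and 6.001 in young females. All reproducing arrays were below all young arrays, whereas diapausing arrays overlapped both. Means were 5.51 ± 0.79 in diapausing, 4.93 ± 0.27 in reproducing and 6.03 ± 0.26 in young females (SD, n = 3 each). The log2 difference of reproducing from young females was -1.10 (SE 0.39, 95% interval from -1.99 to -0.20), with an unadjusted p of 0.022 in the fit across all genes and a limma adjusted p of 0.140. Diapausing differed from reproducing females by 0.58 (SE 0.39, limma adjusted p = 0.641) and from young females by -0.52 (SE 0.39, limma adjusted p = 0.557).

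The 2 probes of *Hsc70-2*, which both scored as complement, gave unequal differences between reproducing and young females. Hsc70_2_2F2R was at 3.98, 5.06 and 4.44 in reproducing and 6.07, 6.25 and 5.96 in young females, with a log2 difference of -1.60 (SE 0.42, limma adjusted p = 0.0709 over 208 probes). It was well above background on only 1 of those reproducing arrays. Hsc70_2_1F1R differed by -0.59 (SE 0.46, limma adjusted p = 0.532) between the same groups, and its arrays overlapped.

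*Hsc70-3*, the BiP of the endoplasmic reticulum, had normalized log2 intensities of 6.93, 5.66 and 5.77 in diapausing, 6.94, 6.84 and 6.57 in reproducing and 6.78, 6.99 and 6.80 in young females. Diapausing replicates 42 and 43 were below all 6 other arrays of reproducing and young females, and replicate 27 lay among them. Means were 6.12 ± 0.71 in diapausing, 6.78 ± 0.19 in reproducing and 6.86 ± 0.12 in young females (SD, n = 3 each). The log2 difference was -0.67 (SE 0.35, 95% interval from -1.46 to 0.13, limma adjusted p = 0.641) for diapausing against reproducing and -0.74 (SE 0.35, 95% interval from -1.53 to 0.05, limma adjusted p = 0.378) for diapausing against young females. Reproducing differed from young females by -0.07 (SE 0.35, 95% interval from -0.87 to 0.72, limma adjusted p = 0.918). Both probes of the gene scored as complement.

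*Hsc70-5*, the mitochondrial form, had normalized log2 intensities of 10.51, 9.12 and 9.37 in diapausing, 11.06, 10.75 and 9.34 in reproducing and 10.26, 10.86 and 10.47 in young females. Reproducing replicate 40 lay with diapausing replicates 42 and 43, and all groups overlapped. Means were 9.67 ± 0.74 in diapausing, 10.38 ± 0.91 in reproducing and 10.53 ± 0.31 in young females (SD, n = 3 each). The log2 differences were -0.71 (SE 0.52, limma adjusted p = 0.641) for diapausing against reproducing, -0.86 (SE 0.52, limma adjusted p = 0.457) for diapausing against young and -0.15 (SE 0.52, limma adjusted p = 0.914) for reproducing against young females.

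*Hsc70Cb*, the exchange factor of the Hsp110 type, had the largest standard error of the 5. Its normalized log2 intensity was 9.51, 6.93 and 7.62 in diapausing, 10.04, 9.41 and 7.92 in reproducing and 8.57, 8.71 and 9.07 in young females. The 14-day groups overlapped each other and young females. Means were 8.02 ± 1.34 in diapausing, 9.12 ± 1.09 in reproducing and 8.78 ± 0.25 in young females (SD, n = 3 each). Its fitted difference of diapausing from reproducing females, -1.10 on the log2 scale (SE 0.71, 95% interval from -2.73 to 0.53, limma adjusted p = 0.641), was the furthest from 0 of the 5 cognates. Diapausing differed from young females by -0.76 (SE 0.71, limma adjusted p = 0.618) and reproducing from young females by 0.34 (SE 0.71, limma adjusted p = 0.843).

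**Figure D2:**
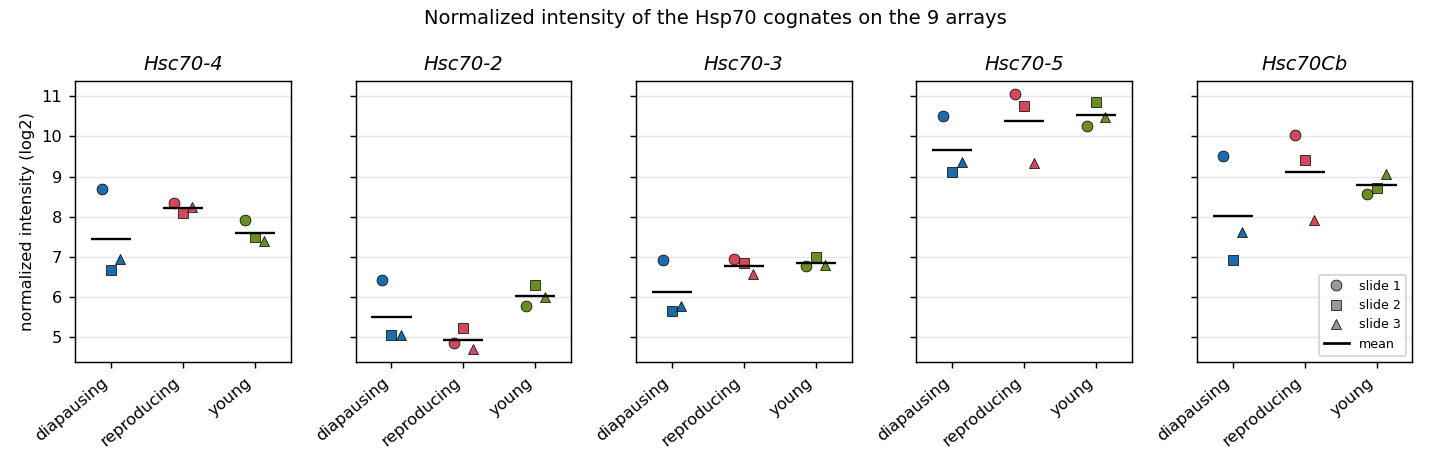
Normalized log2 intensity of each cognate in diapausing, reproducing and young females, 1 point per array, with the symbol giving the slide and the bar the group mean (n = 3). Diapausing replicate 27 (circle, slide 1) was the highest diapausing array for all 5 genes, and *Hsc70-2* is the one gene whose reproducing arrays all lie below the young ones.

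By mean level, the order was reproducing, young, diapausing for *Hsc70-4* and *Hsc70Cb*, young, reproducing, diapausing for *Hsc70-3* and *Hsc70-5*, and young, diapausing, reproducing for *Hsc70-2*. Neighbours in these orders overlapped, except reproducing and young females for *Hsc70-4*. On its coding-strand probe, which is not part of these means, reproducing and young arrays overlapped. Arrays of 2 groups did not overlap for 2 of the 5 cognates in reproducing against young females (29.6% of all genes), and for 0 of 5 in diapausing against reproducing (10.2%) and in diapausing against young females (17.6%).

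In diapausing against reproducing females the fitted difference was below 0 for 4 of the 5 cognates, against 51.9% of all genes, and the median of the 5 was -0.71 against -0.03 over the 108 genes. In diapausing against young females it was below 0 for 5 of 5, against 77.8% of all genes, with a median of -0.74 against -0.39. In reproducing against young females it was below 0 for 3 of 5, against 63.9%, with a median of -0.07 against -0.14. The comparisons share groups of arrays, so these counts are not independent of one another.

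**Figure D3:**
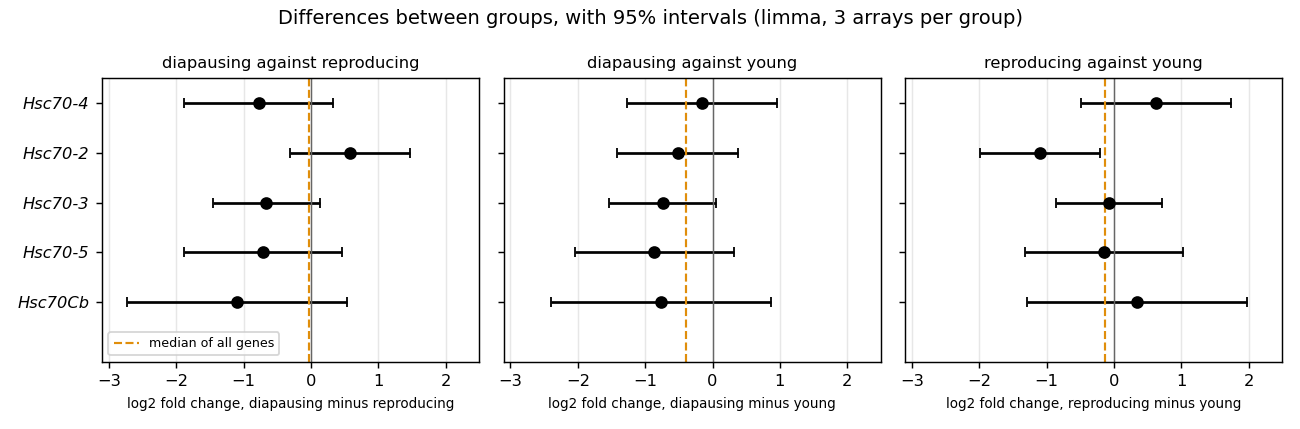
Log2 difference between groups for each cognate (point, with its 95% interval from limma) in the 3 comparisons, and the median over the 108 genes (dashed line). The interval of *Hsc70-2* in reproducing against young females (-1.99 to -0.20) is the one interval that lies on one side of 0.

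The diapausing group was split by 1 array. Diapausing replicate 27 stood above the mean of replicates 42 and 43 by 1.59 on the log2 scale on average over the 5 cognates, against a median of 0.94 over all genes. Without it, *Hsc70-4* was called in diapausing against reproducing females, at a log2 difference of -1.33 (SE 0.23, limma adjusted p = 0.0237), and *Hsc70-3* was called in diapausing against young females, at -1.09 (SE 0.21, limma adjusted p = 0.0451). In diapausing against reproducing females *Hsc70-3* reached a limma adjusted p of 0.0344 with 1 array left out. Its difference there was never below -0.98, a fold change under 2, so it was not called. Its probe Hsc70_3_2F2R was called in 1 of those 9 fits (limma adjusted p = 0.0437). Both probes of *Hsc70-3* scored as complement. The call of *Hsc70-4* also rests on its complement-strand probes. Its coding-strand probe Hsc70_4_1F1R_K ranged from -1.60 to -0.52 with 1 array left out and was not called (lowest limma adjusted p = 0.106). Without replicate 27 *Hsc70-2*, whose probes all scored as complement, was also called in reproducing against young females at -1.09 (SE 0.23, limma adjusted p = 0.0228). That comparison holds no diapausing array, although the array left out also enters the normalization and the estimate of spread. The number of genes called without that array was 6 of 108 in diapausing against reproducing, 3 in diapausing against young and 12 in reproducing against young females. Reproducing replicate 40 lay at -0.80 from the mean of the other reproducing arrays on average over the 5 cognates (median of -0.58 over all genes), and without it *Hsc70-2* differed between reproducing and young females by -0.65 (SE 0.33, limma adjusted p = 0.314). Without diapausing replicate 42 that difference was -0.68 (SE 0.28, limma adjusted p = 0.257).

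Each slide held 1 array per group, so the differences could also be read within slides. In diapausing against reproducing females *Hsc70-4* differed by 0.35, -1.40 and -1.29 on slides 1, 2 and 3, and *Hsc70-3* by -0.01, -1.18 and -0.80. *Hsc70-5* differed by -0.55, -1.63 and 0.03, *Hsc70Cb* by -0.53, -2.48 and -0.30, and *Hsc70-2* by 1.55, -0.16 and 0.34. The median over all genes was 0.05, -0.41 and 0.02 on the same slides, so slide 2 lay lowest for the genes as a whole. In diapausing against young females all 5 cognates were above 0 on slide 1, where the median over all genes was 0.31 and 23.4% of genes were below 0, and all 5 were below 0 on slides 2 and 3, where 88.0% and 81.5% of all genes were also below 0. In reproducing against young females the same sign was found on all 3 slides for *Hsc70-2* (-0.91, -1.08 and -1.30) and *Hsc70-4* (0.43, 0.60 and 0.84). All probes of *Hsc70-2* scored as complement, and for *Hsc70-4* this holds for its complement-strand probes only. The coding-strand probe Hsc70_4_1F1R_K was lower in reproducing than in young females on slide 3 (11.49 against 11.73). With slide as a block no cognate was called, and the limma adjusted p of *Hsc70-2* in reproducing against young females was 0.207.

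**Figure D4:**
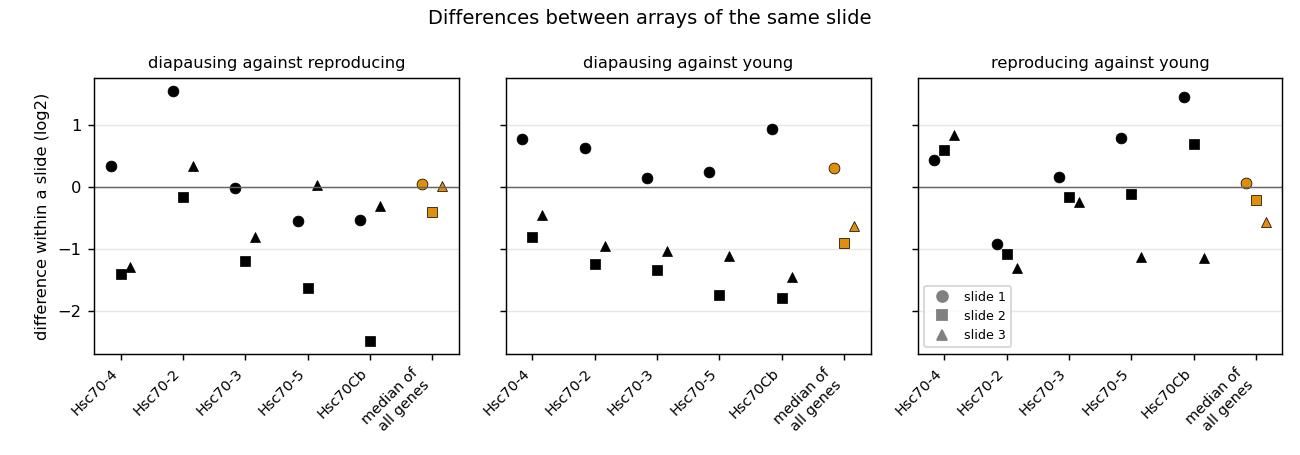
Log2 difference between the arrays of the same slide for each cognate and for the median of all genes (orange), with the symbol giving the slide, in the 3 comparisons. *Hsc70-2* and *Hsc70-4* (each from complement-strand probes) keep one sign on all 3 slides in reproducing against young females, and the circles of slide 1 lie above 0 for all 5 cognates in diapausing against young females.

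A shift of an array that is equal for all genes on the log2 scale cancels when 1 cognate is set against the mean of the other 4. *Hsc70-2* minus the other 4 was -2.49, -2.04 and -2.39 in diapausing, -4.23, -3.55 and -3.32 in reproducing and -2.61, -2.21 and -2.44 in young females, where the sign of the value reflects the probes and only differences between groups can be read. All reproducing arrays lay below all diapausing and all young arrays. The difference was 1.39 for diapausing against reproducing and -1.28 for reproducing against young females, each with an exact two-sided permutation p of 0.10, the smallest that 3 against 3 arrays can give (0.75 after Benjamini-Hochberg adjustment over the 15 such tests). Diapausing differed from young females by 0.11 (exact permutation p = 0.60). The 1.39 joins a difference of 0.58 in *Hsc70-2* itself with values below 0 in the other 4. Those were -0.67 in *Hsc70-3*, -0.78 in *Hsc70-4*, -0.71 in *Hsc70-5* and -1.10 in *Hsc70Cb*. The -1.28 joins -1.10 in *Hsc70-2* with -0.07, 0.62, -0.15 and 0.34 in the other 4, in the same order. For each of the other 4 cognates set against the rest, the groups overlapped in all 3 comparisons, with exact permutation p-values of 0.20 to 1.00. Both probes of *Hsc70-2* scored as complement. They also lay near background, where a shift of an array need not equal that of brighter genes and so need not cancel. How much lying near background compresses its values was not tested.

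The centred profiles of *Hsc70-3* and *Hsc70-5* over the 9 arrays were the most alike within the group, with an RMS difference of 0.359, and those of *Hsc70-2* and *Hsc70Cb* the least alike, at 0.933. The median over all pairs of genes was 0.726. The 3 nearest genes of *Hsc70Cb* were *Hop* (0.255), which couples Hsp70 to Hsp90, *CkIIalfa* (0.261), a catalytic subunit of casein kinase II, and *lark* (0.30), which encodes an RNA-binding protein. Those of *Hsc70-5* were *CkIIalfa* (0.177), *spin* (0.207) and *CG5001* (0.259), the last a J-domain gene. Those of *Hsc70-3* were *PEK* (0.210), a kinase of the endoplasmic reticulum stress response, *Hsp68* (0.221) and *RpL11* (0.225). *Hsc70-4* was nearest to *RpL11* (0.326), *Ef1alfa48D* (0.331) and *dare* (0.351), and *Hsc70-2* to *Slob* (0.282), *CoI* (0.285) and *e* (0.341). The 9 arrays share their overall level in these measures, which therefore describe likeness only.

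Of the genes that work with Hsp70, the 5 genes of J-domain co-chaperones (*DnaJ-1*, *CG12020*, *CG14650*, *CG4164* and *CG5001*) had 0 calls in all 3 comparisons. Their median log2 difference was -0.22 in diapausing against reproducing, -0.47 in diapausing against young and -0.12 in reproducing against young females. Of the 2 other partners, *stv* (starvin), which encodes a BAG-domain exchange factor of Hsc70 in *D. melanogaster*, fell in reproducing against young females, at a log2 difference of -1.82 (SE 0.41, limma adjusted p = 0.0267). It differed by -1.43 (SE 0.41, limma adjusted p = 0.101) in diapausing against young and by 0.39 (SE 0.41, limma adjusted p = 0.708) in diapausing against reproducing females. The other partner, *Hop*, differed by -0.93 (SE 0.65, limma adjusted p = 0.641) in diapausing against reproducing females.

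Among 6 other heat shock protein genes, the stress-inducible *Hsp68* differed by -0.27, -0.37 and -0.10 in diapausing against reproducing, diapausing against young and reproducing against young females. The small heat shock gene *Hsp26* rose in reproducing against young females (3.49, SE 0.77, limma adjusted p = 0.0267) and was the only one of the 6 called in any comparison. In that comparison 8.33% of all genes were called. *Hsp26* has 1 probe, which scored as complement (0.048) and was well above background on 6 of 9 arrays. Its difference was 2.41 in diapausing against young females (SE 0.77, limma adjusted p = 0.139), and *Hsp20* differed by -1.37 in reproducing against young females (SE 0.40, limma adjusted p = 0.0842). The 3 genes of regulators and kinase partners (*Hsf*, the heat shock transcription factor, *Cdc37* and *PEK*) and the 7 housekeeping genes had 0 calls in all 3 comparisons. At an unadjusted p under 0.05, 1 J-domain gene (*CG14650*) and 2 housekeeping genes (*Gapdh1* and *RpL19*) had values below 0 in reproducing against young females, where 23.1% of all genes passed that p.

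Marker genes of other cell types also had unequal levels in these groups. The mean normalized log2 intensity of the 13 photoreceptor genes was 7.97 to 9.79 on diapausing, 6.54 to 8.97 on reproducing and 9.26 to 9.74 on young arrays. All 13 had a fitted difference below 0 in reproducing against young females, against 63.9% of all genes (median of -1.17 against -0.14 over all genes, 0 called). In diapausing against reproducing females 11 of the 13 were above 0, where 51.9% of all genes were below 0, with a median of 0.57 against -0.03 over all genes and 0 called. The mean of the 9 neuronal genes was 4.87 to 5.20 on diapausing, 4.79 to 5.31 on reproducing and 5.35 to 5.95 on young arrays. In reproducing against young females 2 of the 9 were called lower (*slo*, a potassium channel gene, and *shakB*, a gap junction gene), where 8.33% of all genes were called. In diapausing against young females 1 of the 9 was called lower (*slo*), where 1.85% of all genes were called. The part of the cells that these marker genes stand for in the difference of *Hsc70-2* was not tested.

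Over 13 other ways of processing, the fitted difference of diapausing from reproducing females stayed below 0 for *Hsc70-3* (-0.95 to -0.10), *Hsc70-4* (-0.86 to -0.19), *Hsc70-5* (-1.28 to -0.27) and *Hsc70Cb* (-1.93 to -0.61), with no call in any of them. With slide as a block, a fit of only the 2 groups compared, or dim probes left out, the differences equalled those reported, so their signs could not turn. The lowest limma adjusted p for these 4 genes was 0.0278, for *Hsc70-5* at a fold change not over 2. The fitted difference stayed below 0 for these 4 genes with each of the 9 arrays left out as well. *Hsc70-2* was called in diapausing against reproducing females (1.80, limma adjusted p = 0.019) and in reproducing against young females (-1.76, limma adjusted p = 0.0157) when background-subtracted intensities were scaled to the 75th percentile, a setting with 10 and 20 of 108 genes called in these comparisons. In reproducing against young females the difference of *Hsc70-2* stayed below 0 in all 13, from -1.80 (housekeeping genes, not called) to -0.27 (normexp with the 75th percentile, limma adjusted p = 0.845). It was also nearer to 0 than in the VSN fit with quantile normalization (-0.42, limma adjusted p = 0.0145 with a fold change under 2), the brightest probe alone (-0.59), the deposited value table (-0.65), outlier spots kept (-0.66) and VSN on the spike-in spots alone (-0.69), none of them called. Scaling background-subtracted intensities to the 75th percentile moved the median of all genes to 0.27 in diapausing against reproducing and 0.10 in reproducing against young females. In the deposited value table *Hsc70-2* differed by -0.17 (limma adjusted p = 0.905) in diapausing against reproducing females. In diapausing against young females the sign of all 5 cognates turned with the 75th percentile scaling, which moved the median of all genes to 0.32, against -0.39 in the VSN fit.

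**Figure D5:**
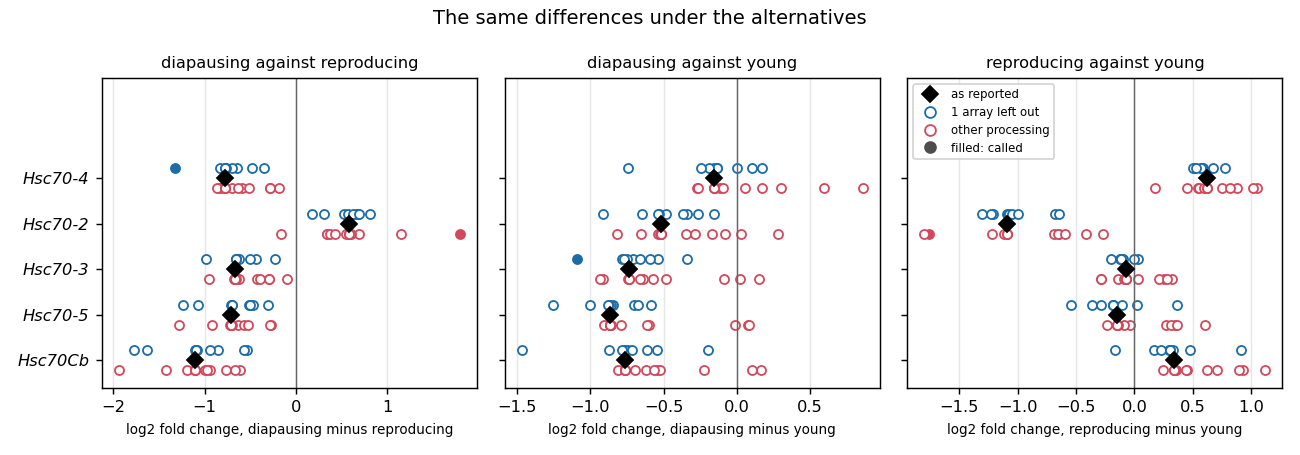
Log2 difference of each cognate in the 3 comparisons as reported (black), with 1 array left out (blue) and under 13 other ways of processing (red), filled where the gene was called. Points of *Hsc70-3*, *Hsc70-4*, *Hsc70-5* and *Hsc70Cb* all lie below 0 in diapausing against reproducing females, and points on both sides of 0 appear for all 5 cognates in diapausing against young females.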

How the data were processed

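Expression was measured on 9 one-colour arrays. As deposited by the authors, the scanner files hold intensity values made by Feature Extraction 9.5.1.1 (version in the file headers), not scaled between arrays. A second deposited file gives processed intensities of 197 probes per array, and its scale and normalization were not settled here, so it served as an alternative only. Outlier spots were left out, copies averaged, and VSN (trimming quantile 0.5, 5 slices, 7 rounds), written anew in R 4.3.3, was fitted on the mean spot intensities of the 197 probes and the spike-in spots. Each gene took the mean log2 value of its probes. limma 3.58.1 (with statmod 1.5.0) was fitted to all 9 arrays for 108 genes, or 208 probes, and p-values were adjusted by Benjamini-Hochberg. VSN with limma was run on simulated data with independent noise per spot and no shift of whole arrays. The strand score was run on sequences drawn from the codon use it had fitted. These runs check the code and do not show how well either performs on these data. The number of arrays limits the precision. Groups were read from abbreviations in the sample titles, and replicate numbers are those of the titles.

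The genes named are the 5 cognates, the 3 genes nearest to each by RMS difference, and genes of the chaperone and housekeeping lists past an unadjusted p of 0.05. Other list genes are named only to say what a short list holds, and marker genes of other cell types were named where called, after their values were seen. Members and lists were chosen with earlier results of these data known. Alternatives were VSN on spike-ins alone or with a quantile of 0.9, background-subtracted intensities scaled to the 75th percentile or to 7 housekeeping genes, normexp (offset 50) with 75th percentile scaling or quantile normalization, keeping outlier spots, all 208 probes, leaving out dim probes, the deposited table, 1 probe per gene (the brightest), a block for slide, a fit of only the 2 groups compared, no fold change minimum, and each array left out. Using Hsc70_4_1F1R_K alone for *Hsc70-4* was chosen after the data were seen. Figures were drawn with matplotlib 3.10.9 in Python 3.11.15.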

Additional observations from a re-analysis of the deposited data

How the results depend on the processing

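Over 13 other ways of processing, 169 of 195 differences of the cognates kept their sign and their side of the threshold, 24 turned in sign and 2 passed the threshold. With slide as a block, a fit of only the 2 groups compared, or dim probes left out, the differences equalled those reported. Their signs could therefore not turn, and they add to the 169 without being a test of sign. With background-subtracted intensities scaled to the 75th percentile, *Hsc70-2* was called at 1.80 in diapausing against reproducing and at -1.76 in reproducing against young females (1 cognate called in each, among 10 and 20 of 108 genes called). The differences in diapausing against young females were then 0.032 for *Hsc70-2*, 0.024 for *Hsc70-3*, 0.86 for *Hsc70-4*, 0.077 for *Hsc70-5* and 0.16 for *Hsc70Cb*, and those in reproducing against young females 0.32 for *Hsc70-3* and 0.35 for *Hsc70-5*. With normexp and the 75th percentile they were 0.28 (*Hsc70-2*), 0.15 (*Hsc70-3*), 0.60 (*Hsc70-4*) and 0.11 (*Hsc70Cb*) in diapausing against young, and 0.25 (*Hsc70-3*) and 0.28 (*Hsc70-5*) in reproducing against young females. Quantile normalization gave 0.30 (*Hsc70-4*) and 0.082 (*Hsc70-5*) in diapausing against young, and 0.21 (*Hsc70-3*) and 0.60 (*Hsc70-5*) in reproducing against young females. Over the 13 ways *Hsc70-5* ranged from -0.24 to 0.60 in reproducing against young females. Its lowest limma adjusted p there was 0.00853, at a fold change under 2 and so without a call. Scaling to the housekeeping genes gave 0.17 (*Hsc70-4*) in diapausing against young, and 0.28 (*Hsc70-3*) and 0.31 (*Hsc70-5*) in reproducing against young females. A VSN quantile of 0.9 gave 0.056 for *Hsc70-4* in diapausing against young and 0.033 for *Hsc70-3* in reproducing against young females. The deposited table gave -0.17 for *Hsc70-2* in diapausing against reproducing and 0.37 for *Hsc70-5* in reproducing against young females. The cause of these turns was not tested.

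Of 93 differences of single probes, among them those with slide as a block, whose signs could not turn, 14 turned. With the 75th percentile, those in diapausing against young females were 0.69 (Hsc70_2_1F1R), 0.26 (Hsc70_3_1F1R), 0.84 (Hsc70_4_1F1R), 0.89 (Hsc70_4_2F2R), 0.17 (Hsc70_5_1F1R) and 0.36 (Hsc70Cb_2F2R), and those in reproducing against young females 0.11 (Hsc70_3_2F2R), 0.45 (Hsc70_5_1F1R) and 0.25 (Hsc70_5_2R). In the deposited table they were -0.36 for Hsc70_2_1F1R in diapausing against reproducing females, and 0.14 (Hsc70_2_1F1R), -0.22 (Hsc70_3_1F1R), 0.47 (Hsc70_5_1F1R) and 0.26 (Hsc70_5_2R) in reproducing against young females.

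With 1 array left out, 126 of 135 differences of the cognates kept sign and side of the threshold, 6 turned and 3 passed the threshold, those 3 all without diapausing replicate 27. In diapausing against reproducing females the values ranged from 0.18 to 0.81 for *Hsc70-2*, -0.98 to -0.23 for *Hsc70-3*, -1.33 to -0.35 for *Hsc70-4*, -1.24 to -0.31 for *Hsc70-5* and -1.77 to -0.53 for *Hsc70Cb*. In diapausing against young females they ranged from -0.91 to -0.16, -1.09 to -0.34, -0.74 to 0.18, -1.26 to -0.58 and -1.47 to -0.20 in the same order. In reproducing against young females they ranged from -1.31 to -0.65, -0.20 to 0.035, 0.50 to 0.78, -0.54 to 0.37 and -0.17 to 0.91. Between 0 and 1 cognates were called in each comparison. Of 297 such differences of single probes 16 turned. Where one did, the values ranged in diapausing against reproducing females from -0.012 to 0.71 (Hsc70_2_1F1R). In diapausing against young females they ranged from -0.63 to 0.096 (Hsc70_2_1F1R), -0.85 to 0.12 (Hsc70_4_1F1R), -0.62 to 0.36 (Hsc70_4_2F2R) and -1.25 to 0.0070 (Hsc70Cb_2F2R), and in reproducing against young females from -0.56 to 0.44 (Hsc70_5_1F1R), -0.48 to 0.30 (Hsc70_5_2R) and -0.51 to 0.73 (Hsc70Cb_1F1R).

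Using Hsc70_4_1F1R_K alone, an alternative added after the data were seen, *Hsc70-4* differed by -1.005, -0.48 and 0.53 in diapausing against reproducing, diapausing against young and reproducing against young females, with no call. The number of all genes called was 1, 2 and 9 of 108 in these comparisons, and ranged over the processing alternatives from 0 to 10 (7 with the housekeeping genes), 0 to 8 and 4 to 20, and over the arrays left out from 0 to 6, 0 to 6 and 0 to 12. The groups share no replicate number, so arrays were paired by slide only, and with slide as a block no cognate was called. Signal over background limits *Hsc70-2* and *Hsc70-3* most, and all probes of these genes scored as complement.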
